A study of Bos taurus with 15 samples.

Results

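Cytochrome c oxidase, complex IV of the respiratory chain, was followed through the transcripts of 4 of its nuclear-encoded subunits in single bovine oocytes from dominant follicles (DF). The 4 genes are COX6A1 (ENSBTAG00000012788), COX6C (ENSBTAG00000014130), COX7A1 (ENSBTAG00000014878) and COX7A2 (ENSBTAG00000005096). They were chosen by symbol, through the gene names in a supplementary table of the study, and they are 4 of 21218 genes in the count table. All 4 stand in that table as more abundant in DF oocytes than in oocytes over 120 μm from the end of the growth phase, a choice made by the study with these same oocytes but not by time point. The 4 are compared here between time points, the COX7A1 and COX7A2 isoforms are set side by side, and the balance between the subunits is followed from oocyte to oocyte.

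Complex IV takes electrons from cytochrome c, passes them to oxygen and pumps protons across the inner mitochondrial membrane, and the resulting gradient drives ATP synthase. Its catalytic core is encoded by mitochondrial DNA, while the smaller subunits that surround the core are encoded in the nucleus. Several of these come as tissue isoforms: COX7A1 is the heart and skeletal muscle form of COX7A, COX7A2 is the form found in most other tissues, COX6A1 is the widespread form of COX6A, and COX6C has no such pair. An oocyte holds a large stock of mitochondria and of stored messenger RNA, and it draws on oxidative phosphorylation for the ATP of maturation and early cleavage.

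The 15 oocytes each came from a different crossbred nulliparous beef heifer, mainly of Limousin and Charolais breeding. Oestrous cycles were synchronized with gonadotrophin-releasing hormone (GnRH) and an intravaginal progesterone device, followed by prostaglandin F2α and by removal of the device, with no ovarian stimulation by FSH. The 6 T1 oocytes (numbered T1.1 to T1.6) date from 24 h before ovulation, the 4 T2 oocytes from 19-23 h after oestrus had been detected, and the 5 T3 oocytes from 2 h before ovulation. Sample titles put T2 before ovulation instead, whereas the other labels, which are used here, count from oestrus. The T1 animals were slaughtered 1 day earlier than the others, and the T3 animals had received a second dose of GnRH, so for T3 the time and this treatment cannot be told apart. The oocytes came from 2 earlier animal trials, and the trial of each oocyte is not given in the sources used here, so trial and time point cannot be told apart either.

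Cumulus cells were removed and each oocyte was sequenced by Smart-seq2, which primes on the poly-A tail, so that tail length can affect what is measured. The study kept 11 oocytes, namely 5 of T1, 4 of T2 and 2 of T3, with total counts from 824854 to 4894970. T1.4 and the 3 oocytes T3.1, T3.3, T3.5 were not kept and had 2874041, 620910, 271763 and 175263 counts, and the oocyte protein gene OOSP2 alone took 116723 of the counts of T3.1. Tests used the 11 kept oocytes, and values of the other 4 are given on the same scale. Levels are given as log2 CPM, where CPM are counts scaled to a common library total, with a prior count of 2. They are shares of the captured RNA, so a change in the number of molecules per oocyte and a change in all other RNA cannot be told apart. Gene lengths were not at hand, so levels of different genes are not ranked, and counts of 2 genes are compared only as ratios that change from oocyte to oocyte.

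The cells carried oocyte transcripts. OOSP2, FIGLA, NLRP5 and KPNA7, 4 of 14 oocyte markers that could be named, summed to between 2512 and 17425 CPM at T1, 3084 and 9980 CPM at T2, and 6033 and 8283 CPM at T3. Of 18 cumulus and granulosa markers only STAR could be named, with 103 to 287 CPM at T1, 173 to 341 CPM at T2 and 62.3 to 131 CPM at T3. Of 12 leukocyte markers CSF1R and SRGN could be named, and they summed to between 64.0 and 1214 CPM at T1, 20.7 and 580 CPM at T2, and 17.98 and 137 CPM at T3. None of these 7 genes was at 0 in a kept oocyte. No erythrocyte marker of 8 and no muscle marker of 10 could be named, so the muscle isoform COX7A1 could not be set beside other muscle genes.

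COX6A1, the widespread form of the COX6A subunit, had the largest fitted difference of the 4 members between T2 and each of the other time points. For T3 minus T2 COX6C was close to it (log2 fold changes of 4.31 ± 1.06 and 4.07 ± 0.88, SE). The order of the members changed in some of the alternative fits given below. At 24 h before ovulation its level was 7.81, 12.52, 8.44, 11.62 and 8.48 log2 CPM in T1.1, T1.2, T1.3, T1.5 and T1.6. At 19-23 h after oestrus detection it was 5.62, 7.25, 7.27 and 7.36 log2 CPM, below every kept T1 oocyte. Among the T1 oocytes, T1.2 and T1.5 stood near the T3 level and the 3 others nearer to the T2 oocytes. At 2 h before ovulation T3.2 and T3.4 stood at 11.46 and 11.18 log2 CPM, above all 4 T2 oocytes. The T2 oocytes carried 56 to 463 reads of the gene and these T3 oocytes 6752 and 5276. Among the oocytes that were not kept, T1.4 was high (11.70 log2 CPM) and T3.1, T3.3 and T3.5 were low for their group (5.44, 7.26 and 8.88 log2 CPM), so the separation of T3 from T2 held in the kept oocytes and not over all 5 T3 oocytes.

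COX6C, a small subunit without a tissue isoform, followed the same order of time points. Its level was 11.66, 13.16, 10.00, 11.99 and 10.26 log2 CPM in the kept T1 oocytes and 7.67, 8.71, 9.40 and 10.10 log2 CPM in T2.1 to T2.4. The 2 groups met only at T2.4, which lay just above T1.3. T3.2 and T3.4 had 12.03 and 13.96 log2 CPM, and in T3.4 the gene took 1.39% of all counts. The T3 oocytes that were not kept had 6.52 (T3.1), 12.44 (T3.3) and 11.81 (T3.5) log2 CPM, and T1.4 had 13.78 log2 CPM. Here T3.3 and T3.5 lay above all T2 oocytes, and T3.1 lay below them.

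COX7A1, the muscle form of COX7A, was measured from few reads. The T2 oocytes had 4, 81, 74 and 89 counts, the kept T1 oocytes had 122, 1321, 426, 1294 and 37, and T3.2 and T3.4 had 499 and 1372. On the scaled levels this was 5.30, 9.20, 6.92, 8.20 and 5.13 log2 CPM at T1, and 2.09, 4.77, 5.43 and 5.30 log2 CPM at T2. T1.1 and T1.6 lay inside the range of the T2 oocytes, and the other 3 T1 oocytes lay above it. T3.2 and T3.4 had 7.71 and 9.23 log2 CPM, above all T2 oocytes. T1.4 had 7.93 log2 CPM, and T3.1, T3.3 and T3.5 had 4.87, 6.42 and 6.68 log2 CPM.

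Among the kept oocytes COX7A2, the widespread form of COX7A, spread less between the oocytes of a time point than COX7A1. At T2 the spread of COX7A1 includes T2.1, at 2.09 log2 CPM from 4 reads, whereas the other T2 oocytes had 4.77 to 5.43. Over all 5 T3 oocytes the order was the reverse, with an SD of 2.16 for COX7A2 and 1.62 for COX7A1. The level of COX7A2 was 8.56, 10.58, 6.73, 9.56 and 7.82 log2 CPM in the kept T1 oocytes and 5.56, 7.34, 6.69 and 6.71 log2 CPM in T2.1 to T2.4. T1.3 was the single kept T1 oocyte inside the T2 range. T3.2 and T3.4 had 9.44 and 10.00 log2 CPM, T1.4 had 10.81 log2 CPM, and T3.1, T3.3 and T3.5 had 4.53, 8.25 and 8.88 log2 CPM. As with COX6C and COX7A1, T3.1 was the only T3 oocyte below or inside the T2 range.

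**Figure D1:**
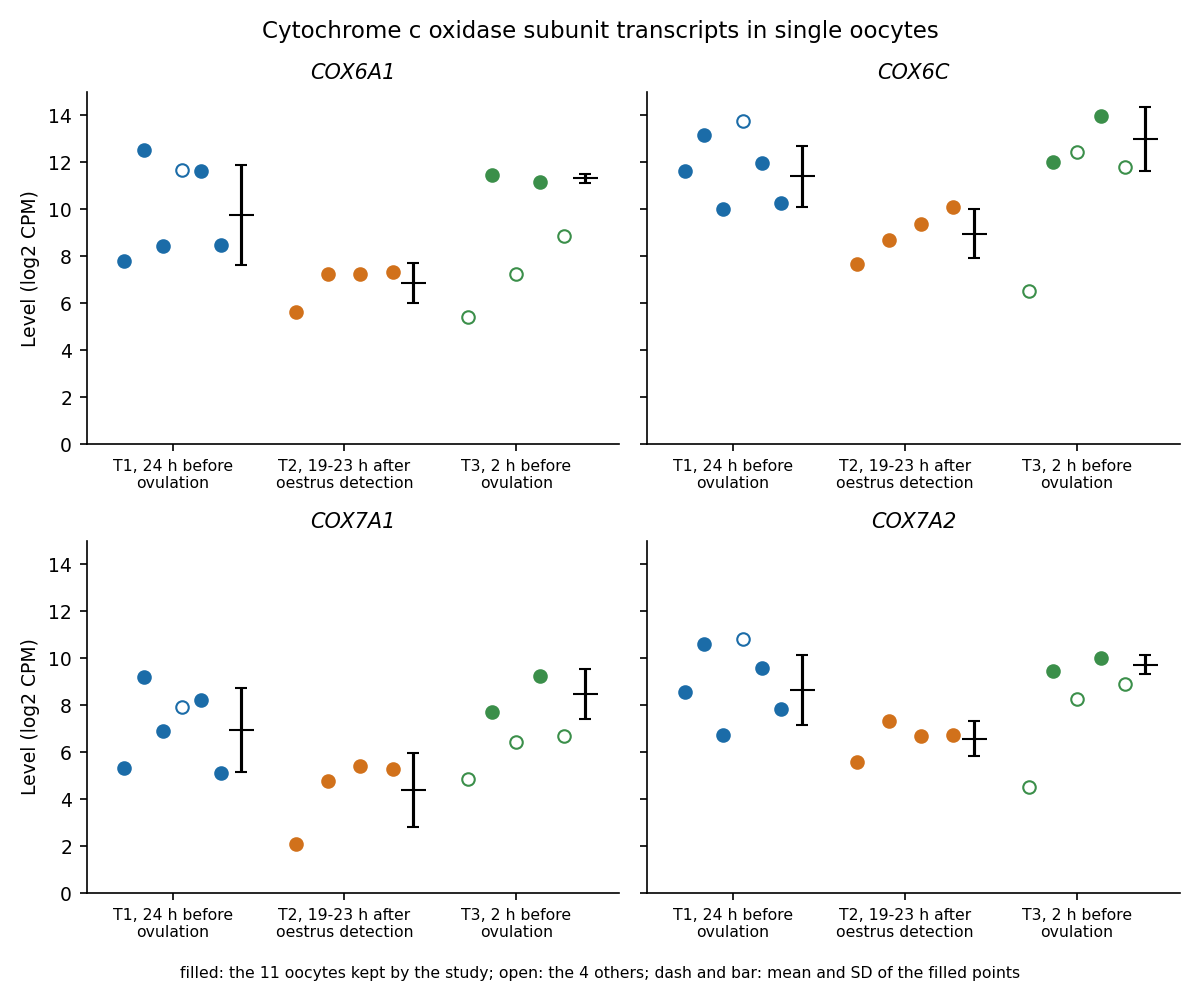
Level of COX6A1, COX6C, COX7A1 and COX7A2 (y axis, log2 CPM) in each oocyte at the 3 time points (x axis); filled points are the 11 oocytes kept by the study, open points the 4 others, and the dash with its bar is the mean and SD of the filled points. All T2 points lie below all filled T1 points for COX6A1, and T2 overlaps the lower T1 points in the other panels, the T1 points spread widely (7.81 to 12.52 log2 CPM for COX6A1), and both filled T3 points sit above all T2 points.

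Over the kept oocytes the mean levels put the time points in the same order for each member, with T2 lowest and T3 highest. COX6A1 had 9.77 ± 2.14 (SD, n = 5) log2 CPM at T1, 6.87 ± 0.84 (SD, n = 4) at T2 and 11.32 ± 0.20 (SD, n = 2) at T3. COX6C had 11.41 ± 1.298, 8.97 ± 1.03 and 13.00 ± 1.37 log2 CPM (SD, the same n). COX7A1 had 6.95 ± 1.78, 4.40 ± 1.57 and 8.47 ± 1.08 log2 CPM, and COX7A2 had 8.65 ± 1.496, 6.57 ± 0.74 and 9.72 ± 0.40 log2 CPM. The means of T1 and T3 differed by less than the SD of the T1 oocytes for COX6A1, COX7A1 and COX7A2, and by more than it for COX6C. Over all 15 oocytes T2 remained lowest, but the T3 mean lay below the T1 mean for each member, at 8.84 against 10.10 log2 CPM for COX6A1, 11.35 against 11.81 for COX6C, 6.98 against 7.11 for COX7A1 and 8.22 against 9.01 for COX7A2.

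The fitted fold changes between T2 and T1 were large, but no member passed the test adjusted over 10198 genes. In the quasi-likelihood fit COX6A1 was 15.4-fold lower at T2 (95% interval 3.799 to 62.7), which is a log2 fold change of -3.95 ± 0.95 (SE), with an adjusted p of 0.132. Its levels lay closer together than this fit, with means of 9.77 (T1) and 6.87 (T2) log2 CPM and medians of 8.48 and 7.26. T1.2 and T1.5 stood at 12.52 and 11.62 log2 CPM, and the other kept T1 oocytes at 7.81 to 8.48. COX6C had a log2 fold change of -2.64 ± 0.75 (adjusted p = 0.150), COX7A1 one of -2.95 ± 0.87 (adjusted p = 0.157) and COX7A2 one of -2.53 ± 0.68 (adjusted p = 0.144). Over all tested genes the same test called 0%, and the median log2 fold change was -0.20. At an unadjusted p under 0.05, all 4 members were lower, against 9.41% of the tested genes. Without overlap between the kept T2 and T1 oocytes, 1 of the 4 members was lower (COX6A1), against 2.29% of the tested genes. The call depended on the test: the likelihood ratio test of edgeR called all 4 members lower, where it called 3.29% of the genes lower, and DESeq2 also called all 4, where it called 3.11%. Without T1.1 the quasi-likelihood test called COX6A1 and COX7A1 (adjusted p = 0.0267 and 0.0456), where it called 3.22% of the genes lower. Without T1.2 the log2 fold changes shrank to -2.83 (COX6A1), -1.92 (COX6C), -1.98 (COX7A1) and -1.72 (COX7A2). Over all settings tried, the adjusted p of COX6A1 ranged from 0.00068 to 0.519.

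Between T2 and T3 the 4 members again missed the adjusted threshold, by less. COX6A1 was 19.9-fold higher at T3 (95% interval 4.20 to 93.8), a log2 fold change of 4.31 ± 1.06 (SE) with an adjusted p of 0.0665. COX6C had a log2 fold change of 4.07 ± 0.88 (adjusted p = 0.0625), COX7A1 one of 3.86 ± 1.00 (adjusted p = 0.0764) and COX7A2 one of 3.05 ± 0.79 (adjusted p = 0.0755). The test called 0% of all genes, with a median log2 fold change of -0.10. All 4 members were higher at an unadjusted p under 0.05, against 9.03% of the tested genes, and all 4 were higher without overlap between the kept oocytes, against 16.6%. Only 2 T3 oocytes entered this comparison, and what sets the size of that share was not tested. Over all 5 T3 oocytes each member overlapped, as T3.1 lay inside or below the T2 range. With all 15 oocytes in the fit the median log2 fold change of the members was 3.08, and 0 were called. The levels of the 4 varied together, so in either comparison they are not 4 independent results. The likelihood ratio test and DESeq2 each called all 4 members higher, where they called 4.21% and 2.93% of the genes higher. The quasi-likelihood test called all 4 without T1.2, 3 without T1.1 and COX6C alone without T3.2, where it called 2.56%, 2.39% and 0.293% of the genes higher. Without T3.4 the log2 fold changes of COX6C and COX7A1 shrank to 2.72 and 2.81. The adjusted p of COX6C ranged from 0.00051 to 0.398 over all settings. Both comparisons use the T2 oocytes, so the differences are not independent of each other.

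Between T3 and T1 no member passed the test, and the difference exceeded its SE for COX6C alone. The log2 fold changes were 0.36 ± 1.00 for COX6A1, 1.43 ± 0.81 for COX6C, 0.91 ± 0.94 for COX7A1 and 0.52 ± 0.76 for COX7A2 (SE), with adjusted p-values of 0.968, 0.5996, 0.855 and 0.923. The mean levels lay further apart than each fitted value, for COX6A1 at 9.77 (T1) and 11.32 (T3) log2 CPM. Of all genes, 0% were called. The 95% intervals reached from -1.76 to 2.49 for COX6A1 and from -0.29 to 3.15 for COX6C, so a several-fold difference in either direction for the former, or a higher level at T3 for the latter, was within what 2 and 5 oocytes allow. With all 15 oocytes in the fit, COX6A1 changed to -0.79 and COX7A2 to -0.45, and neither was called.

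**Figure D2:**
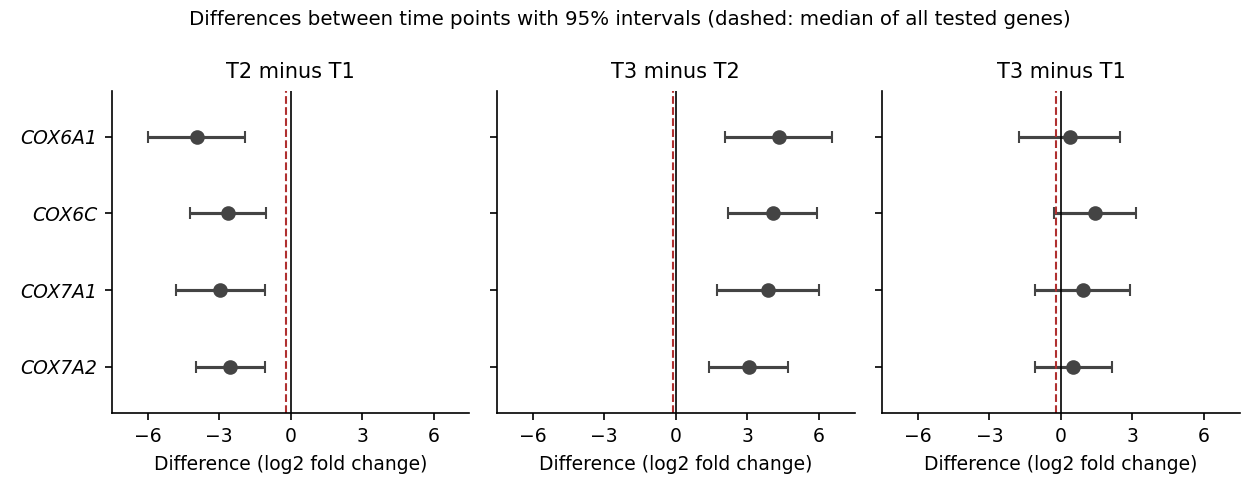
Fitted log2 fold change (x axis) of each member (y axis) for T2 minus T1, T3 minus T2 and T3 minus T1; points are estimates from the 11 kept oocytes, bars are 95% intervals, and the dashed line is the median of all tested genes. All 4 intervals lie below 0 in the first panel and above 0 in the second (before adjustment over the genes tested), and all 4 include 0 in the third.

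The 2 COX7A isoforms were both detected in every oocyte, in a ratio that varied widely. COX7A2 had more counts than COX7A1 in 10 of the 11 kept oocytes. At T1 the ratio of COX7A2 to COX7A1 counts was 9.71, 2.601, 0.876, 2.58 and 6.57 in T1.1, T1.2, T1.3, T1.5 and T1.6. At T2 it was 13.5, 6.07, 2.42 and 2.70, and in T3.2 and T3.4 it was 3.33 and 1.70. T1.3, with 426 COX7A1 and 373 COX7A2 counts, was the exception, and T3.1, which was not kept, was the other oocyte with more COX7A1 (14 against 11 counts). The isoforms differ in length to an extent not used here, so this ratio is of reads and not of molecules.

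Expressed as the share of COX7A1 in the reads of both isoforms, the values ran from 6.90% in T2.1 to 53.3% in T1.3. The Wilson 95% interval of T2.1, from 58 reads, was 2.71% to 16.4%, and that of T1.3, from 799 reads, was 49.8% to 56.8%. The largest counting SD of a kept oocyte was 3.33 percentage points and the median 1.46, whereas the SD between the 11 oocytes was 13.5 percentage points. The difference between oocytes was thus larger than counting error. Without molecular identifiers in Smart-seq2, these intervals cover counting error only and not the loss of molecules before amplification.

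No difference in the isoform ratio between time points passed the test. The log2 ratio of COX7A1 to COX7A2 was -1.69 ± 1.33 (SD, n = 5) at T1, -2.11 ± 0.94 (SD, n = 4) at T2 and -1.25 ± 0.68 (SD, n = 2) at T3. T2 minus T1 was -0.42 (exact permutation test, two-sided, p = 0.730), with an interval from -2.31 to 1.62 obtained by inverting the test. T3 minus T1 was 0.44 (exact p = 0.762) and T3 minus T2 was 0.87 (exact p = 0.400). With 2 T3 oocytes the smallest p these tests allow is 0.0952 against T1 and 0.133 against T2, so no difference with T3 could have passed. With all 15 oocytes the differences were -0.22, 0.67 and 0.90, with exact p-values of 0.867, 0.355 and 0.222.

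**Figure D3:**
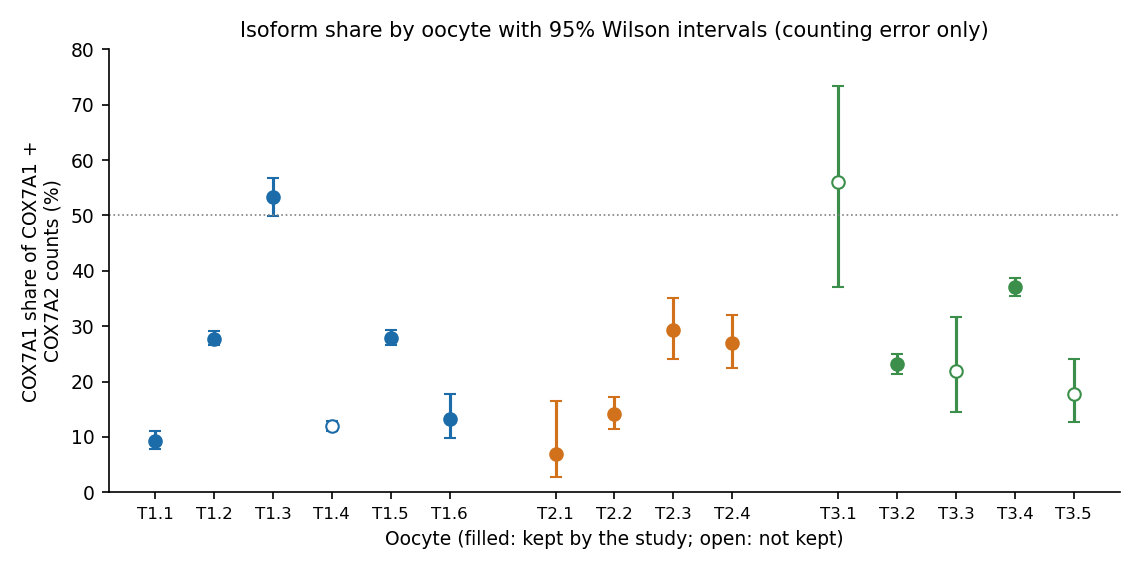
Share of COX7A1 in the summed counts of COX7A1 and COX7A2 (y axis, percent) in each of the 15 oocytes (x axis, coloured by time point); bars are Wilson 95% intervals for counting error, open points are the 4 oocytes not kept, and the dotted line marks 50%. The shares run from 6.90% (T2.1) to 53.3% (T1.3) among the kept oocytes, where T1 spans 9.33% to 53.3%, T2 6.90% to 29.2% and T3 23.1% to 37.1%.

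The balance of COX6A1 to COX6C varied between oocytes of a time point more than it varied between time points. COX6C had more counts in every oocyte. At T1 it exceeded COX6A1 14.5-fold in T1.1 and 1.29-fold in T1.5, with 1.55-, 2.95- and 3.45-fold in T1.2, T1.3 and T1.6. The T2 oocytes were closer to each other, at 4.21-, 2.76-, 4.41- and 6.72-fold, and T3.2 and T3.4 had 1.48- and 6.90-fold. T3.3, which was not kept, had the highest ratio of all, 36.6-fold, from 34 COX6A1 counts. The log2 ratio of COX6A1 to COX6C was -1.64 ± 1.37 at T1, -2.09 ± 0.53 at T2 and -1.68 ± 1.57 at T3 (SD, n = 5, 4 and 2), and T2 minus T1 was -0.45 with an interval from -1.94 to 1.72 (exact permutation test, two-sided, p = 0.571).

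COX7A2 against COX6A1 gave the largest difference among the 6 pairs. Its log2 ratio was 0.75 in T1.1, -1.94 in T1.2, -1.72 in T1.3, -2.06 in T1.5 and -0.66 in T1.6. The T2 oocytes had -0.05, 0.09, -0.58 and -0.65, and T3.2 and T3.4 had -2.02 and -1.18. T2 minus T1 was 0.83 (interval -0.80 to 2.02, exact permutation test, two-sided, p = 0.206) and T3 minus T2 was -1.303 (exact p = 0.133, the smallest possible). The first value depended on T1.1: without it T2 minus T1 was 1.298. The exact p was then 0.0286, unadjusted and the smallest this test allows for groups of that size. Each oocyte was left out in turn and T1.1 is named for its effect, so this p does not establish a difference. T1.1 had the lowest share of COX6A1 in the reads of the 4 members (5.78%, against 11.6% to 38.2% in the 10 other kept oocytes). That share rests on the same COX6A1 counts as the ratio. Of 18 tests, 6 pairs at 3 contrasts, none passed the threshold, and each adjusted p was 1. The tests with T3 could not have passed, as the smallest exact p they allow is 0.0952 against T1 and 0.133 against T2. For T2 minus T1 it is 0.0159 before adjustment, so no pair could have passed by itself over 18 tests. That none passed is thus no evidence of an unchanged balance.

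**Figure D4:**
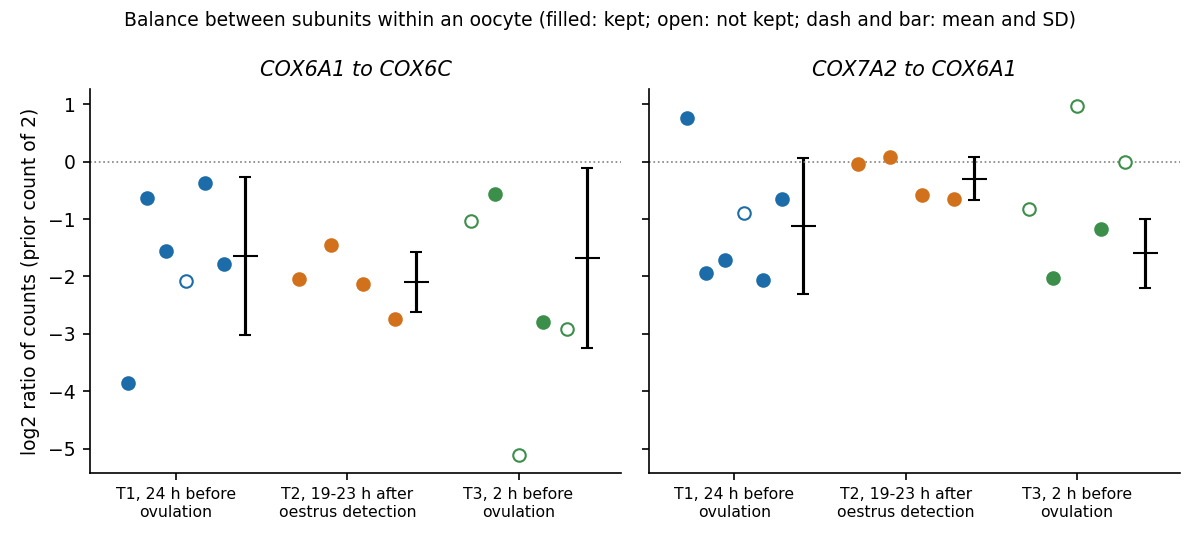
Within-oocyte log2 ratio of counts (y axis, prior count of 2) of COX6A1 to COX6C (left) and COX7A2 to COX6A1 (right) at the 3 time points (x axis); filled points are kept oocytes, open points the others, and the dash with its bar is the mean and SD of the filled points. On the left the T1 oocytes span -3.85 to -0.37 and enclose the T2 oocytes. On the right T1.1, at 0.75, is the highest of the kept oocytes.

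No change of the members relative to other genes of the respiratory chain was detectable with 11 oocytes. Relative to the mean level of 9 other oxidative phosphorylation genes, COX6A1 was 1.28 ± 0.63 log2 units higher at T1, 0.85 ± 0.21 at T2 and 1.44 ± 0.43 at T3 (SD). T2 minus T1 was -0.43 for COX6A1 (interval -1.13 to 0.48), 0.03 for COX6C (-1.05 to 0.96), -0.09 for COX7A1 (-1.18 to 0.97) and 0.39 for COX7A2 (-0.66 to 1.31). Across 12 such tests, each adjusted p was 0.952 by the exact permutation test, two-sided. Those with T3 could not have passed, as their smallest possible exact p is 0.0952 against T1 and 0.133 against T2. For T2 minus T1 it is 0.0159 before adjustment, so no member could have passed by itself over 12 tests. Each interval reaches beyond 1 log2 unit in at least 1 direction, so changes of that size relative to these genes could have gone undetected.

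Of the 2 other subunit genes of complex IV that could be named, NDUFA4 had the direction of the members in both comparisons and NDUFA4L2 did not at T3. Of 22 genes for subunits, 6 could be named, the 4 members with NDUFA4 and NDUFA4L2, and at an unadjusted p under 0.05 5 of the 6 were lower at T2 than at T1 (9.41% of all tested genes were) and 5 of the 6 were higher at T3 than at T2 (9.03% were). NDUFA4, a subunit first assigned to complex I, had a log2 fold change of -2.23 (T2 minus T1, adjusted p = 0.150) and 2.88 (T3 minus T2, adjusted p = 0.0728). NDUFA4L2, its paralogue known for its response to low oxygen, had -0.57 and -1.43, and its level was 5.55 ± 1.37 (SD, n = 5), 5.44 ± 0.25 (SD, n = 4) and 4.03 ± 0.42 (SD, n = 2) log2 CPM at T1, T2 and T3. The median log2 fold change of the 6 was -2.59 for T2 minus T1 and 3.45 for T3 minus T2, beside medians of -0.20 and -0.10 over all tested genes.

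Genes that build complex IV gave a similar count. Of 29 assembly and copper delivery genes, 5 could be named, and at an unadjusted p under 0.05 4 of the 5 were lower at T2 and 4 of the 5 higher at T3, beside 9.41% and 9.03% of all tested genes. Symbols came only from the study's table of genes that differed between DF oocytes and those over 120 μm, so the genes named here and above were selected with these oocytes. COX17, the copper chaperone of the complex, had log2 fold changes of -3.68 (T2 minus T1) and 4.32 (T3 minus T2). PET100, an assembly chaperone, had -3.59 and 4.29, COA8 had -3.48 and 4.17, and COX14, which acts in the synthesis and early assembly of the COX1 core subunit, had -3.30 and 2.43. COX19, another copper-handling protein, had -0.21 and -0.46 at low counts, from 1 to 67 in the kept oocytes. No gene of this list passed the adjusted threshold in the quasi-likelihood test.

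The 9 other oxidative phosphorylation genes were all lower at T2 and all higher at T3 at an unadjusted p under 0.05, with medians of -2.83 and 3.54 on the log2 scale. Among them the complex I gene NDUFA7 had -3.81 and 4.97, the complex III hinge gene UQCRH had -3.69 and 4.25, and ATP5F1E, the epsilon subunit of ATP synthase, had -2.37 and 3.03. These 9 and the members had been picked by the study from these oocytes as higher in DF oocytes, so their shared direction is not independent evidence. Of all 10198 tested genes, these included, 960 were lower at T2 than at T1 at an unadjusted p under 0.05 and 921 were higher at T3 than at T2. FIGLA, an oocyte transcription factor, was one of them, with -2.75 and 3.00, while the oocyte marker OOSP2 had -0.08 and -0.15. STAR had 0.30 and -1.27 and SRGN had -1.21 and -1.21, and the summed levels of the cumulus and leukocyte markers reached no higher at T3 than at T2 or T1. Their part in the differences was not tested.

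**Figure D5:**
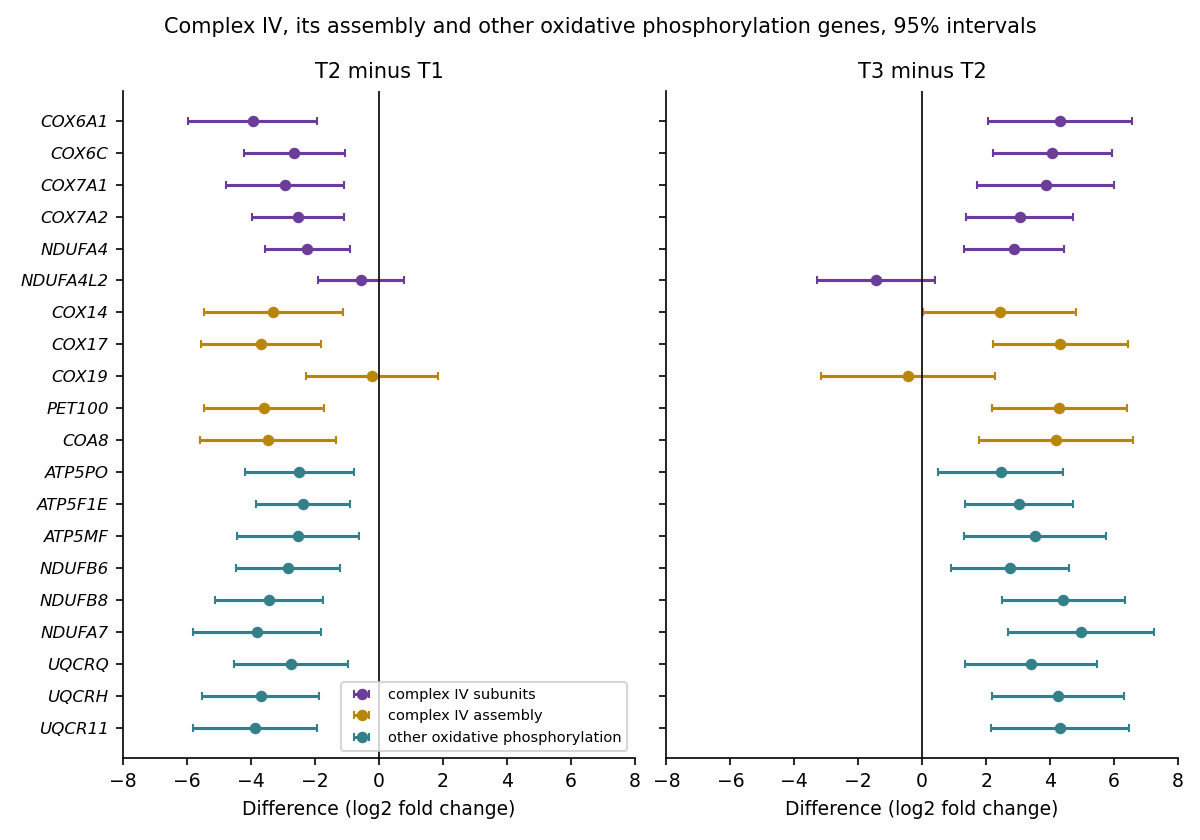
Fitted log2 fold change with its 95% interval (x axis) of 6 complex IV subunit genes, 5 assembly genes and 9 other oxidative phosphorylation genes (y axis) for T2 minus T1 (left) and T3 minus T2 (right), from the 11 kept oocytes. NDUFA4L2 and COX19 have intervals that include 0 in both panels, and the other 18 genes lie below 0 on the left and above 0 on the right, before adjustment over all genes.

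The levels of the 4 members varied together from oocyte to oocyte. Over the 11 kept oocytes Pearson's r between pairs of members was 0.870 to 0.938 and Spearman's rho 0.773 to 0.918, lowest for the pair of COX7A isoforms on both measures. These are descriptions over oocytes that share time points and the scaling of each library. Summed over the 4, the level was 301, 756, 972 and 1403 CPM in T2.1 to T2.4 and 3864, 17124, 1597, 8259 and 1843 CPM in the kept T1 oocytes, whereas T3.2 and T3.4 had 7901 and 19891 CPM. The lowest kept T1 oocyte lay close to the highest T2 oocyte, and T1.2 and T1.5 lay between the 2 T3 oocytes. COX6C held 49.2% to 83.5% of the reads of the 4 in the kept oocytes and COX7A1 1.00% to 7.52%, so the sum is weighted towards COX6C.

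Within a time point, COX6A1 and COX7A1 were the more variable members. The pooled SD within time points was 1.599 log2 units for COX6A1 and 1.63 for COX7A1, higher than in 80.1% and 81.5% of the tested genes. COX6C and COX7A2 had 1.22 and 1.16, close to the median of 1.16 over all tested genes. For COX6A1 the SD was 2.14 at T1, but at T2 and T3 (0.84 and 0.20) it was below that of COX6C. The COX7A1 value includes T2.1, with 4 reads of the gene. The part of low counts and of single oocytes in these values was not tested.

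The genes whose levels most resembled the mean of the 4 members over the 11 kept oocytes, among 1660 genes with a symbol, were AGBL5 (r = 0.994), PFDN5 (0.993), RNASEH2C (0.987), COX17 (0.983) and HINT1 (0.983). For COX7A1 alone they were MLN (0.990), ATP5IF1, TMEM88, MAP4K1 and HINT1 (0.976), and for COX7A2 alone STX8 (0.984), GTSF1, ATP5PO, RPS27A and POMP (0.968). The 5 genes closest to each isoform had none in common. All of these genes belong to those that the study found higher in DF oocytes, and they rank first among many with values close to theirs.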

How the data were processed

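Single-cell RNA sequencing libraries (Smart-seq2) of 15 bovine DF oocytes were used. The authors trimmed the reads (Trim Galore 0.6.6 in the submitters' processing notes), aligned them by HISAT2 to the ARS-UCD1.2 assembly and counted them in SeqMonk. The deposited values are counts of reads on each Ensembl gene, without normalization. No annotation release, strand setting or step for duplicates is given in the sources used here, so reads of processed pseudogenes of these subunits could be counted with, or lost from, the members. Symbols came from the study's supplementary table, which names 1741 of its 1829 identifiers. Genes it does not name entered the fits, the adjustment and the shares over all tested genes, but none of them is described singly.

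Counts were tested with edgeR 4.0.16 in R 4.3.3 (TMM, filterByExpr, 1 quasi-likelihood fit of the 3 time points, Benjamini-Hochberg adjustment over 10198 genes). A call needed an adjusted p under 0.05 and an absolute log2 fold change of 1.5. SEs are the fold change divided by the root of its F statistic. Total counts per kept oocyte, 824854 to 4894970, set the counting precision. Ratios of counts within an oocyte (prior count of 2) were compared by two-sided exact permutation tests (Python 3.11.15, scipy 1.17.1). A test of the isoform ratio within oocytes needs gene lengths and was not run. Alternatives were DESeq2 1.42.0, the likelihood ratio test, other scalings, filters and prior counts, all 15 oocytes, a replicate block and each oocyte left out. Genes named in the text are the members, the lists for complex IV, its assembly and the other oxidative phosphorylation genes, the cell markers and the 5 genes most like the members. The members and lists were chosen with earlier results of these data known. Each oocyte came from a different animal, so the replicate numbers do not pair oocytes. The p-values measure the spread between oocytes, in which animal, oocyte and library cannot be told apart.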

Additional observations from a re-analysis of the deposited data

Results flagged for a closer look

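COX6A1 in T2.1 lay apart from the other T2 oocytes. Its level was 5.62 log2 CPM and the nearest T2 oocyte had 7.25 log2 CPM, a gap of 0.938 of the whole range of the 4 oocytes, above the critical value of 0.829 for a group of that size. It was the 1 oocyte set apart in this way in 28 groups examined, and chance sets apart about 1 in 20. T2.1 also had the lowest value of the 4 T2 oocytes for COX6C, COX7A1 and COX7A2, and the lowest total count of its time point (1071109). Without T2.1 the mean T2 level of COX6A1 was 7.29 log2 CPM instead of 6.87. The part of the low total count was not tested.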

How the results depend on the processing

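The direction of each member held for T2 minus T1 and for T3 minus T2 under every setting run. The number of members called did not: 0 of 4 in both, it was 4 in both under DESeq2, the likelihood ratio test and no filter on low counts. With at least 10 counts in every oocyte, which left COX7A1 untested, it was 2 (T2 minus T1) and 3 (T3 minus T2), and with library size alone it was 0 and 1. Of all genes tested, 1.62% were called lower at T2 and 1.99% higher at T3 with no filter, 3.65% and 4.25% with at least 10 counts, and 0% and 0.412% with library size alone. For the 5 assembly genes the same settings gave 4, 4, 4, 2 and 0 for T2 minus T1 and 3, 3, 3, 3 and 1 for T3 minus T2, and for the 9 other oxidative phosphorylation genes 8, 8, 7, 5 and 0, and 8, 8, 8, 4 and 3. Leaving out 1 oocyte gave 0 to 2 members (T2 minus T1) and 0 to 4 (T3 minus T2), 0 to 3 and 0 to 3 assembly genes, and 0 to 6 and 0 to 8 of the others. Of all genes tested, 0% to 3.22% were then called lower at T2 and 0% to 2.56% higher at T3. Without T1.1, 2 members (COX6A1 and COX7A1) were called lower at T2 and 3 higher at T3, beside 3.22% and 2.39% of the genes. Without T1.2 all 4 were called higher at T3, beside 2.56% of the genes. Without T3.2, which leaves T3.4 as the lone T3 oocyte, the median log2 fold change of the 4 was 4.17 (T3 minus T2). The causes were not tested.

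With all 15 oocytes the mean T3 levels moved to 8.84 (COX6A1), 11.35 (COX6C), 6.98 (COX7A1) and 8.22 (COX7A2) log2 CPM, and with library size alone that of COX6A1 to 11.10. Some differences that were not called changed sign. With all 15 oocytes these were T3 minus T1 for COX6A1 (-0.79) and COX7A2 (-0.45), for COX7A2 to COX6A1 (0.47) and for COX6A1 relative to the other genes (-0.83, and -0.36 for T3 minus T2), and T3 minus T2 for COX6A1 to COX6C (-0.39). Leaving out 1 oocyte moved the log2 ratio of COX7A1 to COX7A2 between -0.81 and 0.049 (T2 minus T1) and between -0.039 and 0.93 (T3 minus T1), that of COX6A1 to COX6C between -1.15 and 1.07 (T3 minus T1) and between -0.69 and 1.52 (T3 minus T2), and COX6A1 relative to the other genes between -0.14 and 0.47 (T3 minus T1).

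A replicate block, which pairs oocytes by a number that only names them, called 0 members and gave -3.03, -3.34, -3.40 and -2.42 for COX6A1, COX6C, COX7A1 and COX7A2 (T2 minus T1), and changed the sign of T3 minus T1 for COX6C (-0.15), COX7A1 (-0.35) and COX7A2 (-0.048). Correlations of same-numbered oocytes were -0.016 to 0.140. The 2 kept T3 oocytes and the few COX7A1 reads at T2 limit the precision.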
